A study of Mus musculus with 10 samples.

Results

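Apoe, Apoc1 and 7 genes of cholesterol efflux and lipoprotein uptake were followed in C2C12 cells, an established mouse myoblast line that fuses into myotubes in low serum. The 9 genes were Apoe, Apoc1, Abca1, Abcg1, Pltp, Nr1h2, Nr1h3, Vldlr and Lrp1. They were taken as every non-control array probe that carries one of these names, which gave 13 probes on 22 spots, out of 55681 probes and 34607 names on the array. The genes were proposed from earlier results of these same arrays, so their mimic minus scrambled differences are given as a description and without a p-value. Of the 9 genes, 8 had a probe that passed the filter on dim signals and 1, Nr1h3, did not.

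The cells were transfected with 150 nM of a miR-27a-3p mimic, a synthetic RNA that stands in for the mature microRNA, or with 150 nM of a scrambled sequence. Both groups were kept in growth medium with 10% serum, received the same transfection reagent, and were analysed after 72 h. The labels put transfection efficiency at about 60%, so the RNA of either group came from transfected and untransfected cells together. In such bulk RNA, fewer cells that express a gene and less RNA per cell cannot be told apart. RNA was hybridised to 1-colour Agilent arrays, on which a probe is a short DNA strand and its brightness follows the amount of matching RNA.

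The 10 samples, 6 with the mimic and 4 with the scrambled sequence, are labelled as independent transfections. The scanner headers place them on 5 array positions of 1 slide, each scanned in 2 runs. Files of one position shared between 21 and 75 spots marked as uneven, and none of the 40 other pairs of files shared any. Both files from each position were averaged on this ground, which left 3 mimic arrays and 2 scrambled arrays. The scanner software flags a spot as well above background when it is clearly brighter than its surroundings, and 27% to 35.3% of spots per file carried that flag. Of 13138 genes tested, 676 passed an adjusted p of 0.05 (limma, Benjamini-Hochberg), 308 lower and 368 higher with the mimic. Lower genes made up 45.6% of the calls, against 31.8% when the arrays were scaled over all probes. Over genes, log2 levels on the scrambled pair of arrays differed with an SD of 0.56, against 0.32 to 0.44 for the mimic pairs.

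Apolipoprotein E and apolipoprotein C-I sit on lipoprotein particles. Apolipoprotein E is the ligand by which lipoprotein receptors take particles up, and apolipoprotein C-I hinders that uptake and inhibits lipid-processing enzymes. Cells export cholesterol through the transporters ABCA1 and ABCG1, onto lipid-poor apolipoproteins and onto HDL, and phospholipid transfer protein (Pltp) remodels HDL. In macrophages and other cells, the oxysterol-sensing nuclear receptors LXR alpha (Nr1h3) and LXR beta (Nr1h2) switch on Abca1, Abcg1, Apoe and Apoc1 together. Muscle cells are better known for taking up fatty acids from lipoproteins, to which the VLDL receptor contributes, than for exporting cholesterol.

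The transfected microRNA is shown first because its seed, bases 2 to 8 in capitals, defines the targets it is expected to pair with. The sequences are from RefSeq, build GRCm38.p6, with miR-27a-3p at chr8:84208727-84208747 and its relative miR-27b-3p at chr13:63300760-63300780, both on the plus strand.
miR-27a-3p: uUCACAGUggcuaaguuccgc
miR-27b-3p: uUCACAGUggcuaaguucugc
No other mature mouse miRNA of the RefSeq table had this seed, and miR-27b-3p differed from miR-27a-3p at 1 base, C19U, counted from the 5′ end. The match to the seed, ACTGTGA, was absent from all 13 probes of the 9 genes and present in 455 of 55681 probes on the array, or 0.817%. Probes cover only 60 bases of a transcript, so this says nothing about the rest of it.

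The Apoe probe is shown because it was printed on 10 spots of every array, which gave it repeated measurements that the other probes lack. It lies on the minus strand at chr7:20281732-20281791 of the array's build, mm9.
Apoe probe: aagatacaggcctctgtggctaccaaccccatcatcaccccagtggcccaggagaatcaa

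Apoe was well above background in every scrambled file and near background in every mimic file. Its processed signal, which the scanner software had already corrected for background, was 411, 534, 403 and 487 in scrambled replicates 1 to 4. It was 61.2, 48.7, 47.7, 71.3, 50.5 and 56.9 in mimic replicates 1 to 6. The groups did not overlap, and the scans of one position lay close together. All 40 Apoe spots of the scrambled files were well above background, against 8 of the 60 mimic spots. Single spots used for the values ranged from 358.6 to 596.5 in scrambled files and from 28.2 to 95.3 in mimic files, so every scrambled spot used was brighter than every mimic spot used.

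**Figure D1:**
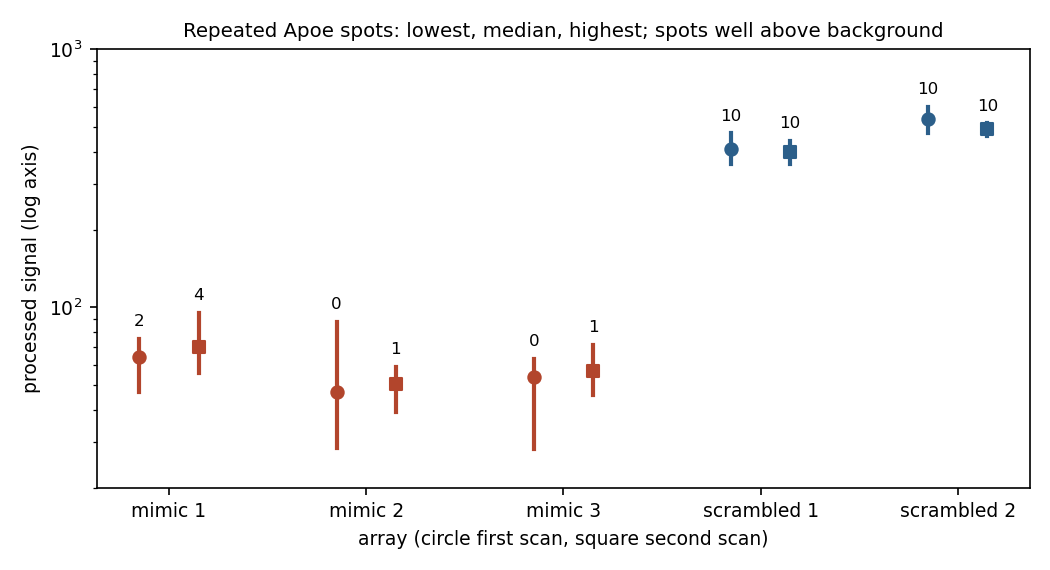
Processed signal (log axis) of the repeated Apoe spots in each of the 10 files, by array; the line runs from the lowest to the highest spot used, the marker is the median, and the digit above it counts the spots well above background. The lowest scrambled spot, 358.6, lies above the highest mimic spot, 95.3.

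On a log2 scale relative to the 75th percentile of each file's bright probes, where 0 marks that percentile, Apoe lay at -2.60 and -2.01 on the scrambled arrays. It lay at -5.48, -5.53 and -5.85 on the mimic arrays. The means were -2.30 ± 0.42 (SD, n = 2) and -5.62 ± 0.20 (SD, n = 3), a log2 difference of -3.32 ± 0.23 (SE). The lowest scrambled array stood 2.88 above the highest mimic array, against a distance of 0.59 between the scrambled arrays. Because the mimic files were not well above background, this difference is a bound: set against the dimmest signal still well above background on those arrays, Apoe was at least 6.25-fold lower with the mimic.

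Apoc1 showed the same split between groups, on a single spot per file, at chr7:20274831-20274890 (mm9, minus strand). Its signal was 529, 307, 465 and 276 in scrambled replicates 1 to 4. It was 15.1, 27.7, 26.2, 17.8, 39.0 and 28.4 in mimic replicates 1 to 6. No mimic file and every scrambled file was well above background. The array levels were -2.31 and -2.82 with the scrambled sequence and -7.48, -6.12 and -6.78 with the mimic, a log2 difference of -4.23 ± 0.41 (SE). The groups stood 3.31 apart at their nearest arrays. As a bound, Apoc1 was at least 5.37-fold lower with the mimic. The mimic values of Apoc1 spread more (SD 0.68, n = 3) than those of Apoe, and at signals this close to background they hold no order.

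**Figure D2:**
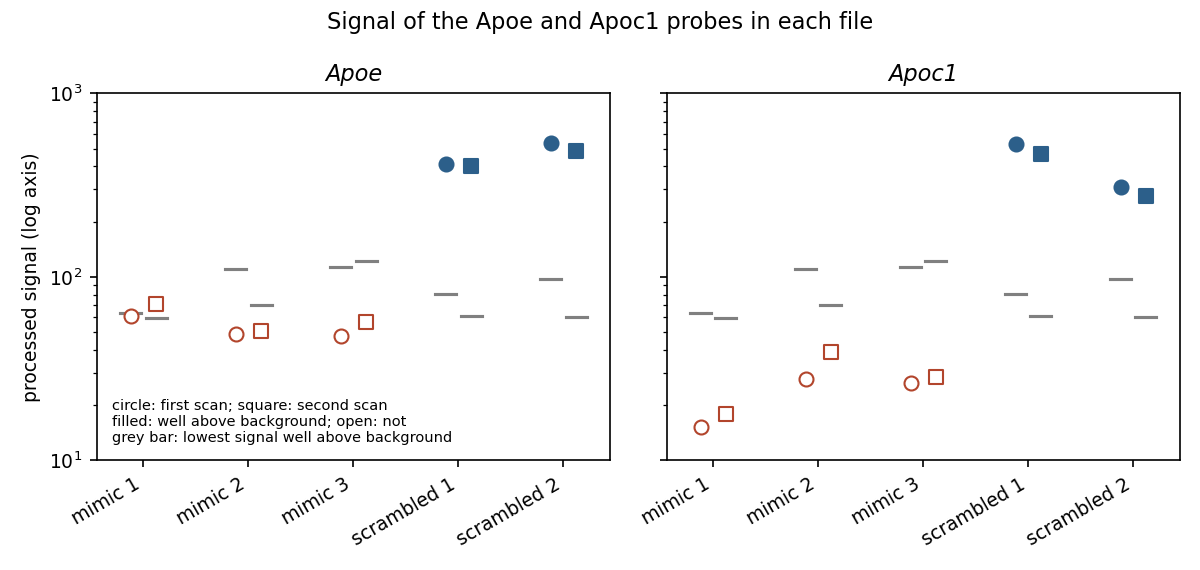
Processed signal (log axis) of the Apoe and Apoc1 probes in each file, placed by array; filled markers were well above background, open markers were not, and grey bars give the lowest signal that was well above background in that file. Scrambled files lie between 276 and 534, mimic files between 15.1 and 71.3.

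Both entered the fit only through the scrambled files, as did 30 genes in all, or 0.228% of those tested, that carried the flag of a bright signal in each of the 4 scrambled files but in none with the mimic. Within the first scan alone the differences were -3.44 for Apoe and -4.45 for Apoc1, and within the second scan -3.19 and -4.01. Under normexp background correction, which adds an offset of 50 to every signal, they were -1.96 and -2.28. These are smaller in size than the bounds above, which are 2.64 and 2.42 in log2. The bounds therefore hold for the main processing only.

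Abca1, the transporter that loads cholesterol onto lipid-poor apolipoproteins, had the opposite sign. With the mimic it lay at -3.33, -3.57 and -3.40, and with the scrambled sequence at -3.62 and -4.04. The mimic arrays were all above the scrambled ones, but the nearest pair was only 0.06 apart. The log2 difference was 0.40 ± 0.18 (SE), or 1.32-fold, with all 6 mimic files and 3 of 4 scrambled files well above background. Without scrambled array 1 the difference was 0.60, and without scrambled array 2 it was 0.19.

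Abcg1, which passes cholesterol to mature HDL, lay at -3.74, -3.85 and -4.06 with the mimic and at -3.66 and -3.51 with the scrambled sequence. All mimic arrays were below both scrambled arrays, with 0.09 between the nearest pair. The log2 difference of -0.30 ± 0.16 (SE) was smaller than the median distance of 0.36 between the scrambled arrays over all genes. It was -0.14 with the arrays scaled over all probes. The transporters thus had differences of opposite sign, each small beside those of Apoe and Apoc1.

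Pltp, which transfers phospholipid between lipoproteins, was moderately bright in every file. Its levels were -0.90, -0.25 and -0.93 with the mimic and -1.38 and -0.19 with the scrambled sequence. The groups overlapped, and the scrambled arrays stood 1.19 apart, a distance exceeded by few of the genes tested (percentile 97.1). The log2 difference was 0.09 ± 0.40 (SE). Leaving out scrambled array 1 turned it to -0.50 and leaving out scrambled array 2 raised it to 0.68, so its direction rested on 1 array.

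Of the LXR genes only Nr1h2 was measurable. LXR beta's gene lay at 1.09, 1.13 and 0.78 with the mimic and at 0.93 and 1.05 with the scrambled sequence. These values interleave, and the log2 difference was 0.01 ± 0.17 (SE), with values from -0.06 to 0.17 over the processing alternatives. Nr1h3, the gene of LXR alpha, had 2 probes, neither of them well above background in any of the 10 files. Their signals lay between 12.7 and 78.3, which gives no level and no fold for Nr1h3.

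Vldlr, the VLDL receptor and an uptake receptor for apolipoprotein E-bearing particles, was higher with the mimic. Its signal was 923, 670, 920, 682, 417 and 736 in mimic replicates 1 to 6 and 377, 232, 354 and 198 in scrambled replicates 1 to 4. As levels, the mimic arrays stood at -1.89, -2.11 and -1.87, the scrambled ones at -2.75 and -3.26. The groups did not overlap, with 0.64 between the nearest arrays. The log2 difference was 1.05 ± 0.20 (SE), or 2.07-fold, and ranged from 0.80 to 1.30 over the alternatives. A second, dimmer Vldlr probe was well above background in 2 of the 6 mimic files and in no scrambled file; its difference of 0.69 had the same sign and was not tested.

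Lrp1, a large endocytic receptor that binds apolipoprotein E among many ligands, lay at -0.07, -0.06 and 0.15 with the mimic. On the scrambled arrays it lay at -0.03 and 1.21. The groups overlapped: scrambled array 1 matched the mimic arrays and scrambled array 2 stood alone, 1.24 higher (percentile 97.6 of that distance over all genes). The log2 difference of -0.58 ± 0.36 (SE) became 0.04 without scrambled array 2 and -1.20 without scrambled array 1. The 2 other Lrp1 probes, farther toward the gene's 5′ end, were well above background in no file.

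**Figure D3:**
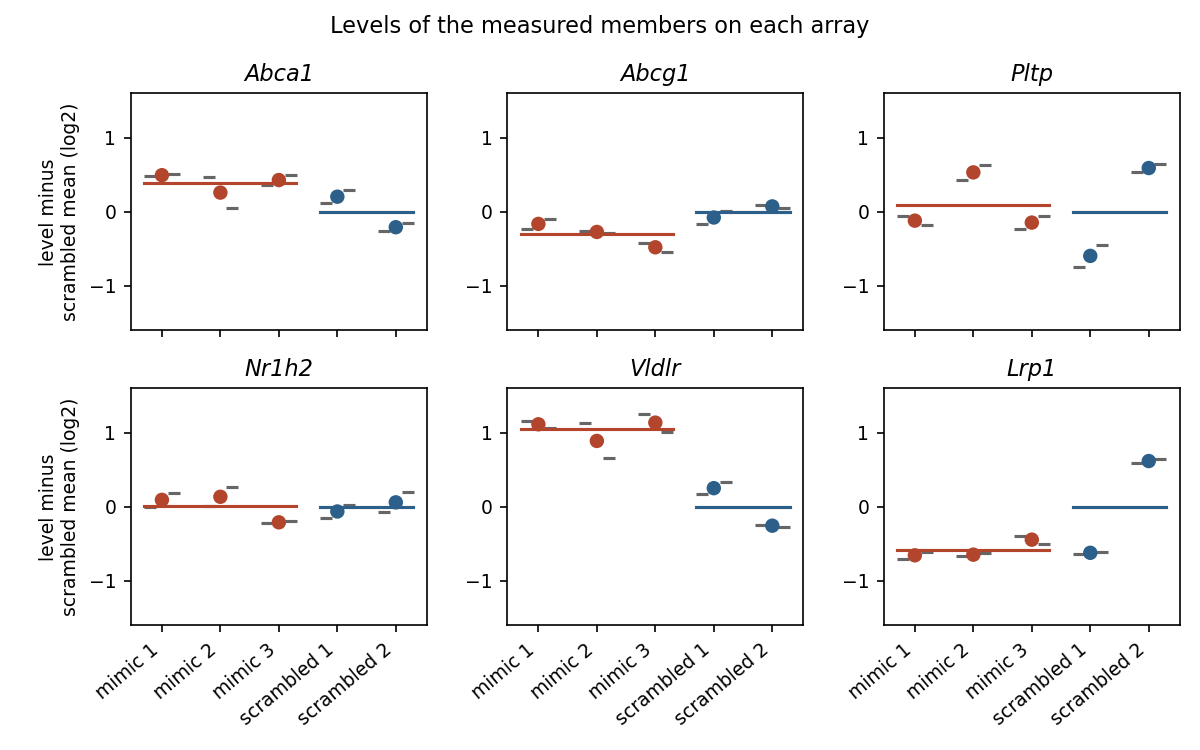
Levels of Abca1, Abcg1, Pltp, Nr1h2, Vldlr and Lrp1 on each array, as log2 minus the mean of the scrambled arrays; points are arrays, grey dashes the 2 scans of each, horizontal lines the group means. The Vldlr arrays separate by 0.64, while for Lrp1 and Pltp the scrambled arrays lie 1.24 and 1.19 apart.

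Side by side, 4 of the 8 tested genes had a negative and 4 a positive difference, beside a median of -0.05 over all genes (quartiles -0.35 and 0.23). In 5 of the 8 the arrays of the groups did not overlap, where 45.6% of all genes tested did not. All mimic arrays were below both scrambled arrays for Apoe, Apoc1 and Abcg1 (25.8% of all genes) and above them for Abca1 and Vldlr (19.8%). In the fit over all genes Apoe and Apoc1 passed the threshold as lower and Vldlr as higher, 3 of 8, where 5.15% of genes did (2.34% lower, 2.8% higher). The genes were chosen from this contrast, so nothing is read from that count. The count was 2, without Vldlr, when any of the mimic arrays was left out. It is not given without a scrambled array, because a single array then remains in that group. Vldlr also dropped out when the file of mimic replicate 2 or scrambled replicate 1 was left out, in the second scan alone, under quantile normalization, in the deposited value table and with no filter on dim probes. Apoc1 dropped out with no filter on dim probes, and in the deposited value table it could not be tested for lack of values. With only probes above background in all files, neither Apoe nor Apoc1 could be tested.

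The promoter of Abca1 is shown because it carries the element through which LXR acts, and that of Apoe because Apoe had the most repeated measurements of the lower genes. The 250 bases before the annotated start come from RefSeq, build GRCm38.p6, with Abca1 at chr4:53159896-53160145 and Apoe, for one of its 3 annotated starts, at chr7:19699189-19699438, both on the minus strand. Capitals mark a DR4 element, a pair of receptor half-sites with a spacer between them.
Abca1 promoter: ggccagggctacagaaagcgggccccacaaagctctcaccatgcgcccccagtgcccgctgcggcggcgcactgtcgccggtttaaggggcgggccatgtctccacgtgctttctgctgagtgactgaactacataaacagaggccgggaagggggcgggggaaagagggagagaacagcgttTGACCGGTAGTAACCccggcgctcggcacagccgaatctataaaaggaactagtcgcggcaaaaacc
Apoe promoter: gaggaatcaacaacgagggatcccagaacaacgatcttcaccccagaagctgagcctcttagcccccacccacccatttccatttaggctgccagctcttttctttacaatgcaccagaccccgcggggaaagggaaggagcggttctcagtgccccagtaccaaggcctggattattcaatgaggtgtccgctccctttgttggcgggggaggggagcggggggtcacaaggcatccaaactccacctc
The element was searched on both strands as GGTNA and GGTCA with 5 bases of any kind between them, letters chosen so that they take in the known Abca1 element. It stood from base -67 to base -53 of the Abca1 start and in 58 of 32851 promoter windows in all, or 0.177%. Windows were present for 7 of the 9 genes, Apoc1 and Abcg1 having none, and Abca1 held the only match among their 11 windows. A TATA box (TATAAA) stood in the window of Abca1, in another Apoe window than the one shown, and in 12.4% of all windows, and a GC box (GGGCGG) in those of Abca1, Lrp1, Pltp and Vldlr and in 32.7% of all windows. The DR4 match of Abca1 followed from the choice of letters. Elements outside the 250 bases were not searched, so a window without a match does not show that a gene lacks one. These letters may overlap other motifs, and a match is not evidence of binding.

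Apoe and Apoc1 are neighbours on chromosome 7, in a cluster that also holds Apoc4 and Apoc2. The other genes of this stretch did not share the differences of Apoe and Apoc1 in size. Of 18 listed neighbours, 11 were tested and none passed the threshold (limma, adjusted p of 0.05), with 3 at an unadjusted p below 0.05, where 25.3% of all genes were. Their median log2 difference was -0.34, beside -0.05 over all genes. Apoc2 and Apoc4, also apolipoprotein genes, were well above background in no file, as were Cblc, Zfp296 and Nkpd1, while Bcam was in 3 files and Exoc3l2 in 1.

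Tomm40, the mitochondrial import pore gene next to Apoe, lay at -1.12, -1.14 and -0.85 with the mimic and -0.70 and -0.35 with the scrambled sequence, a difference of -0.51 ± 0.18 (SE). Clptm1, on the other side beyond Apoc2, had the most negative neighbour value, -0.98 ± 0.28 (SE), on levels of -0.52, -0.51 and -0.39 against 0.05 and 0.97. The groups did not overlap in either gene, but the scrambled arrays of Clptm1 lay far apart. Nectin2, an adhesion receptor gene, was at -0.08 and Mark4, a kinase gene, at -0.07. Differences were -0.60 for Bloc1s3, -0.61 for Ppp1r37, -0.38 for Gemin7, -0.34 for the NF-kappaB gene Relb and -0.23 for Clasrp. Scrambled arrays 1 and 2 again lay apart, at -4.31 and -3.52 for Bloc1s3 and -3.51 and -2.64 for Ppp1r37. They were at -1.67 and -1.06 for Gemin7 and -3.39 and -2.31 for Relb, whose scrambled array 1 was below every mimic array. The differences were positive for Trappc6a, at 0.35, and for Bcl3, at 0.15. All of these neighbours' log2 differences are short of the bounds for Apoe and Apoc1.

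**Figure D4:**
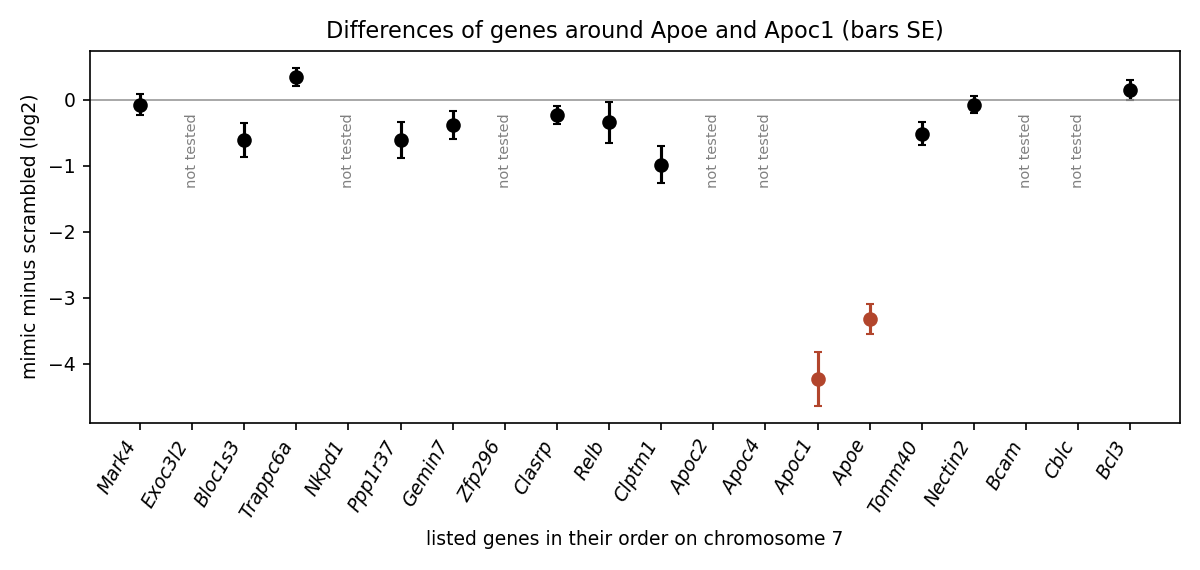
Log2 difference, mimic minus scrambled, with its SE for listed genes around Apoe and Apoc1, in their order on chromosome 7; genes marked not tested were too dim. Apoe and Apoc1 are drawn at their measured differences, -3.32 and -4.23, for which only bounds hold, and the tested neighbours between -0.98 and 0.35.

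Among 16 other apolipoprotein genes, 5 were tested and 1 passed the threshold, as higher, or 20% beside 5.15% of all genes. Apod, which encodes a small lipocalin that binds lipids and is not related to apolipoprotein E in sequence, lay at -1.17, -1.16 and -1.55 with the mimic and at -2.97 and -4.63 with the scrambled sequence. It rose by 2.51 ± 0.47 (log2, SE; limma adjusted p = 0.0429), and was bright enough to be flagged in all 6 mimic files but in only 2 of 4 scrambled ones. Apod thus passed the filter of at least 4 files only because of the mimic files, so its call leans on the filter. With no filter on dim probes its adjusted p (limma) was 0.194. Leaving out scrambled array 1 raised the difference to 3.33, and leaving out scrambled array 2 lowered it to 1.68. Clu, the clusterin gene, named here after its values were seen, was at -1.71 ± 0.52 (SE) and did not pass. Apool and Apoo, genes of a mitochondrial complex despite their names, had the smallest differences, 0.06 and 0.14. Of the 11 not tested, 9 were well above background in no file, Apoa1 and Apob among them.

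The partners, coregulators and targets of LXR gave no call. Of 24 listed genes 18 were tested, with 0 past the threshold (limma) and 2 at an unadjusted p below 0.05, both with negative differences, beside 25.3% of all genes. The same count was 3 of 5 for the other apolipoproteins, 4 of 12 for the lipoprotein receptors, and 8 of 23 for sterol transport, 7 of them higher. The median log2 difference of the LXR list was -0.12, and the 18 differences were negative in 11 and positive in 7. Srebf1, at -0.60, and Scd2, at -0.40, were the 2 below the unadjusted p, and are named here after their values were seen. The smallest differences were those of Acaca, an enzyme of fatty acid synthesis, at -0.003, and Mlxipl, a glucose-responsive transcription factor, at -0.05. Lpl, the lipoprotein lipase gene, was well above background in all 10 files but was not tested, because a marked spot left an array without a value.

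Of 26 lipoprotein receptor genes and partners, 12 were tested and 1 passed the threshold, as lower, or 8.33% beside 5.15% of all genes. The differences of the 12 were negative in 6 and positive in 6. Lrp4, known in muscle as the agrin co-receptor at the neuromuscular junction, lay at -3.86, -3.64 and -3.72 with the mimic and -2.76 and -2.40 with the scrambled sequence. It fell by 1.16 ± 0.17 (log2, SE; limma adjusted p = 0.023), and its arrays did not overlap. Lrp5, a Wnt co-receptor, had the smallest difference, 0.01. The median of the receptor list was -0.16.

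Among 33 genes of sterol transport, cholesterol esters and HDL enzymes, 23 were tested, with a median of 0.18. Past the threshold were 2, both higher, or 8.7% beside 5.15% of all genes. The differences of the 23 were negative in 7 and positive in 16. Ch25h, which encodes the enzyme that makes the oxysterol 25-hydroxycholesterol, was flagged as bright in each of the 6 mimic files but in no scrambled one. Its levels were -2.83, -3.03 and -2.83 with the mimic and -5.11 and -5.38 with the scrambled sequence. It was thus at least 4.09-fold higher with the mimic (limma adjusted p = 0.00398). That bound holds for the main processing only: under normexp background correction the log2 difference was 1.19, short of it. Ch25h entered the fit only through the mimic files, so its call leans on the filter. With no filter on dim probes its adjusted p (limma) was 0.056. Pcolce2, a collagen-processing enhancer that also assists the maturation of HDL's apolipoprotein A-I, lay at -1.36, -1.32 and -1.38 against -2.44 and -2.57. It rose by 1.15 ± 0.13 (log2, SE; limma adjusted p = 0.0122). The transporter genes Abcg4 and Abca7, relatives of Abcg1 and Abca1, both had a difference of 0.01.

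**Figure D5:**
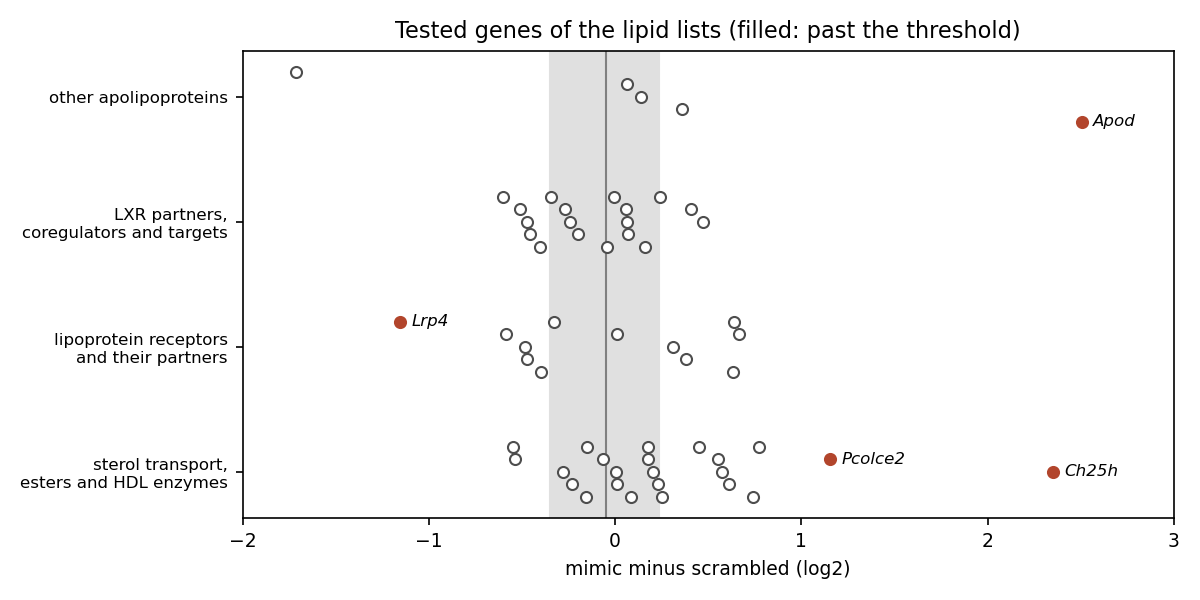
Log2 difference, mimic minus scrambled, of every tested gene of 4 lipid lists; filled points passed the threshold and are named, the grey band spans the quartiles of all genes and the line their median. Of the named genes Lrp4 lies at -1.16, Pcolce2 at 1.15 and Apod at 2.51, Ch25h is drawn at its measured difference although only a bound holds for it, and the band runs from -0.35 to 0.23.

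Over these lists and the neighbours together, 4 of 69 tested genes passed, 1 lower and 3 higher, or 5.8%, beside 5.15% of all genes. Among the higher ones, Ch25h and Apod passed the filter on dim signals only because of their mimic files. The count of genes that passed was 1, Ch25h, when any of the mimic arrays was left out. It is not given without a scrambled array, because a single array then remains in that group. Without mimic arrays 1, 2 and 3 in turn the adjusted p was 0.134, 0.0933 and 0.0911 for Lrp4, 0.0962, 0.0785 and 0.0624 for Pcolce2, and 0.152, 0.152 and 0.103 for Apod. Over all alternatives the adjusted p (limma) ran from 7.43e-05 to 0.224 for Lrp4 and from 2.19e-06 to 0.178 for Pcolce2. It ran from 0.000425 to 0.194 for Apod and from 1.8e-07 to 0.056 for Ch25h. Each lowest value came from counting every file as a separate array, which treats both scans of a position as independent replicates. Those lowest values are therefore no support for the calls. Each highest value came with no filter on dim probes.

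Likeness to Apoe and Apoc1 was measured as the root mean square difference between genes' log2 levels over the 5 arrays, each centred on its own mean. Nearest to Apoe were Srpk3, a kinase gene of striated muscle, at 0.157, Ankrd2, a stretch-responsive muscle gene, at 0.319, Igf2, a growth factor gene, at 0.352, Slc2a6 at 0.360 and Cldn15 at 0.368. Nearest to Apoc1 were Cyp2f2 at 0.404, Ramp3 at 0.440, Tm6sf1 at 0.454, Sparcl1 at 0.594 and Nup210 at 0.705. Srpk3, Ankrd2, Cldn15, Ramp3, Tm6sf1, Sparcl1 and Nup210 were, like Apoe and Apoc1, above background with the scrambled sequence alone, in every such file. Distances that rest on mimic signals near background, as for Apoe, Apoc1 and these genes, are a description and give no firm order. On the scrambled arrays they ran opposite ways, Apoe being higher on array 2 and Apoc1 on array 1.

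Genes of muscle differentiation moved with Apoe and Apoc1 across the groups. Of 30 listed, 28 were tested and 16 fell (57.1% called, beside 2.34% of all genes called lower), with none higher past the threshold, and the median difference was -1.50. The log2 differences were -1.55 for Tnnc2, a fast-muscle troponin gene, -1.36 for Tnnt1, a slow-muscle one, -2.10 for the transcription factor gene Myog, and -1.56 for the fusion gene Mymx. Those of Tnnc1 and Casq2, which encode a troponin and a calcium store protein, were -2.17 and -2.08. Their adjusted p (limma) was in each case under the threshold. The smallest differences of the list were 0.18 for Myl1 and 0.31 for Myl4, both myosin light chain genes. The list's median level was -0.77, -0.64 and -1.003 with the mimic and 0.45 and 0.68 with the scrambled sequence, with no overlap. Earlier results of these arrays had shown this list to be lower, so nothing is read from its calls or their share. Its part in the differences of Apoe and Apoc1 was not tested.

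Because macrophages, adipocytes, liver and glial cells are known sources of Apoe, their markers were read in the same files. Of 8 myoblast markers, 6 were well above background in all files, Myod1, Des, Vim, Cdh15, Itga7 and Ncam1, while Myf5 was in some and Pax7 in none. Of 10 macrophage markers only Cd68 was in all, and 7 were in none, among them Adgre1, Ptprc, Lyz2 and C1qa. The summed macrophage signal relative to the 75th percentile was 0.250 to 0.262 on mimic arrays and 0.204 to 0.277 on scrambled arrays, so the groups overlapped. For adipocytes, 7 of 8 markers, Adipoq and Plin1 among them, were in no file, with sums of 0.060 to 0.092 against 0.083 to 0.112. For hepatocytes 6 of 8, Alb among them, were in no file and only Apoa2 was in all, with sums of 1.34 to 1.46 against 1.09 to 1.13. Apoa2 made up most of the hepatocyte sums, with log2 levels of 0.37, 0.47 and 0.41 with the mimic and 0.09 and 0.03 with the scrambled sequence. The sums of every list also took in markers that were not well above background. For astrocytes and Schwann cells 4 of 8, Gfap and Sox10 among them, were in no file, with sums of 0.311 to 0.388 against 0.295 to 0.398. Endothelial and smooth muscle markers gave 6.67 to 7.33 with the mimic and 9.97 to 12.6 with the scrambled sequence, where Kdr, Acta2 and Tagln were in all files and the other 5, Pecam1 and Myh11 among them, in none. The myoblast sum was likewise lower with the mimic, 20.8 to 23.1 against 25.2 to 32.1. The part of these shifts in the differences of Apoe and Apoc1 was not tested.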

How the data were processed

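Agilent scanner files of 10 samples were used. Per the file headers, Feature Extraction 12.0.0.7 made them, while the submitters' processing notes name 10.7.3.1. The deposited intensity (processed signal) was background-corrected by that software. The deposited value table, used only as an alternative, holds linear intensity with empty cells (column medians 188.9 to 291.1) whose normalization and centring are not stated. Spots marked as uneven or outliers were left out and spots of a probe averaged. Each file was set to log2 minus its 75th percentile, taken over the 13029 probes that passed the background flag in every file (on 0.5 or more of a probe's spots). Both scans of a position were averaged. Probes well above background in at least 4 files were kept, 1 per gene (highest mean). Symbols were updated through RefSeq accessions (28026 probes) or symbols. The fit used limma 3.58.1 in R 4.3.3 (lmFit, eBayes) with Benjamini-Hochberg adjustment, and was tested on simulated data. A probe not well above background throughout a group has only a bound, the bright group's mean against the higher, per array, of the dim probe's signal and the lowest signal well above background.

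The members and lists were chosen with earlier results of these data known. Named list genes are those past the threshold (up to 6 by p) and up to 2 with the smallest difference, with all tested neighbours of Apoe. Nothing says that positions hold separate cultures beyond the labels, so p-values reflect only how far these arrays spread; the small number of arrays limits the precision. The alternatives changed the replicate unit, scan, background, scaling, source, filter, probe rule, eBayes setting and array set. Some values of single genes are not reported here.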

Additional observations from a re-analysis of the deposited data

How the results depend on the processing

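Among the members and the 4 pathway genes called, none past the threshold changed sign; Nr1h2, Pltp and Lrp1, not past it, did under some settings. The count of 676 genes called became 4512 with all 10 files as separate arrays (673 of the 676 were shared in direction), 1459 with scan as a block and position as a random block, and 17 with no filter on dim probes. The 4 pathway genes became 29, 9 and 0 under those settings, and 2 with only probes above background in all files. The replicate numbers of the labels did not pair the samples (correlations of same-numbered files between -0.35 and 0.38); with the replicate block there were 1950 calls, 9 pathway genes, and 2 members with a positive difference in place of 4. Leaving out 1 array gave 47 to 4352 calls, 1 to 32 pathway genes and 2 to 5 positive members; leaving out 1 file gave 574 to 661, 3 to 4 and 3 to 4. Counts were 47, 79 and 138 without mimic arrays 1, 2 and 3. The cause was not tested. Scaling over all probes moved the median of all genes from -0.05 to 0.11, with Abcg1 at -0.14. Apoe, -3.32, ran from -3.61 to -1.96, and Apoc1, -4.23, from -4.57 to -2.28. Signals near background limit Apoe and Apoc1 with the mimic to bounds, and Nr1h3 has no level. Not run for lack of values: the count of positive members in the deposited table and with only probes above background in all files.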
